A study of Arabidopsis thaliana with 4 samples.

Results

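LHCB4.1, LHCB4.2 and LHCB4.3, the nuclear genes for the antenna protein CP29, and RCA, the nuclear gene for Rubisco activase, were followed in Arabidopsis thaliana seedlings given glutathione. The members were picked by gene name, each through the probe set whose platform annotation holds that gene and no other. They are 4 of the 13356 genes that such probe sets stand for, and each has 1 probe set (of 22810 on the array) and none shared with another gene. The data are 4 one-colour Affymetrix arrays that the source, tissue and ecotype labels give to seedlings of ecotype Columbia. The free-text descriptions of all 4 samples conflict with this and speak of embryos at stages before and during cellularisation, so the tissue given here rests on the other labels and the protocols. In the GSH group (2 arrays), seedlings grown for 15 days after germination were treated with GSH, the reduced form of glutathione, for 72 hours. The control group (2 arrays) holds seedlings of the same ecotype and growth period, and titles and source names alone set it apart, since all samples carry the same treatment text. The dose of GSH and the controls' age at harvest are not given in the sources used here, so treatment and a possible difference in age cannot be told apart. Replicates are biological by their titles, yet separate cultures are named nowhere, so p-values cover no more than the spread between these arrays.

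CP29 is one of the minor, monomeric chlorophyll a/b proteins of photosystem II. It sits between the photosystem's core and the major trimeric antenna, LHCII, passes excitation energy inward and holds supercomplexes together. Arabidopsis encodes CP29 in the LHCB4 genes, of which LHCB4.3, also called LHCB8, makes a protein with a shortened C-terminal part and is known for its induction in strong light. Rubisco activase is an AAA+ ATPase that frees Rubisco, the carbon-fixing enzyme of the Calvin-Benson cycle, from inhibitory sugar phosphates. Alternative splicing of the Arabidopsis RCA transcript gives a long and a short form, and the long form carries cysteines through which thioredoxin adjusts its activity. RefSeq lists 1 transcript for LHCB4.1, 2 for LHCB4.2, 2 for LHCB4.3 and 3 for RCA. The files do not say which of these each probe set detects, so every value below is that of a probe set and not of a splice form.

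Median log2 values were 5.33 and 5.34 on the GSH arrays and 5.37 and 5.35 on the control arrays. Across probe sets, which are not independent replicates, the GSH arrays correlated at r = 0.998, the control arrays at 0.998 and pairs across groups at 0.982. With limma and Benjamini-Hochberg adjustment over all 22746 probe sets tested, 7680 (33.8%) passed an adjusted p of 0.05, 3692 higher and 3988 lower with GSH. That split was 4805 higher and 1967 lower when arrays were centred on the spiked-in Bacillus RNA described below. LHCB4.1, LHCB4.2 and RCA gave values far above these medians. The root markers measured were 3 of 12 listed. Their group means, between 3.93 and 4.33, lay near the lower quartile of the arrays (4.05 to 4.07). No detection calls were used, so it is unknown whether any of the 3 exceeds background.

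All 4 genes gave lower signals on both GSH arrays than on both control arrays, by 13.6% to 25.1%. LHCB4.2 had the largest difference of the 4 and RCA the next largest, and these passed the test. LHCB4.1 and LHCB4.3 did not pass it. The members' median log2 difference, GSH minus control, was -0.23, beside -0.0073 for all probe sets tested. Both GSH values lay below both control values for 34% of all probe sets, and 17.5% passed the limma threshold in the lower direction, and the 2 of 4 members past it stand beside those shares. None of the 4 was 2-fold apart between the groups, as 1.69% of all probe sets were in the lower direction without overlap. In bulk RNA from seedlings, fewer green cells and less of a transcript in each green cell cannot be told apart.

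**Figure D1:**
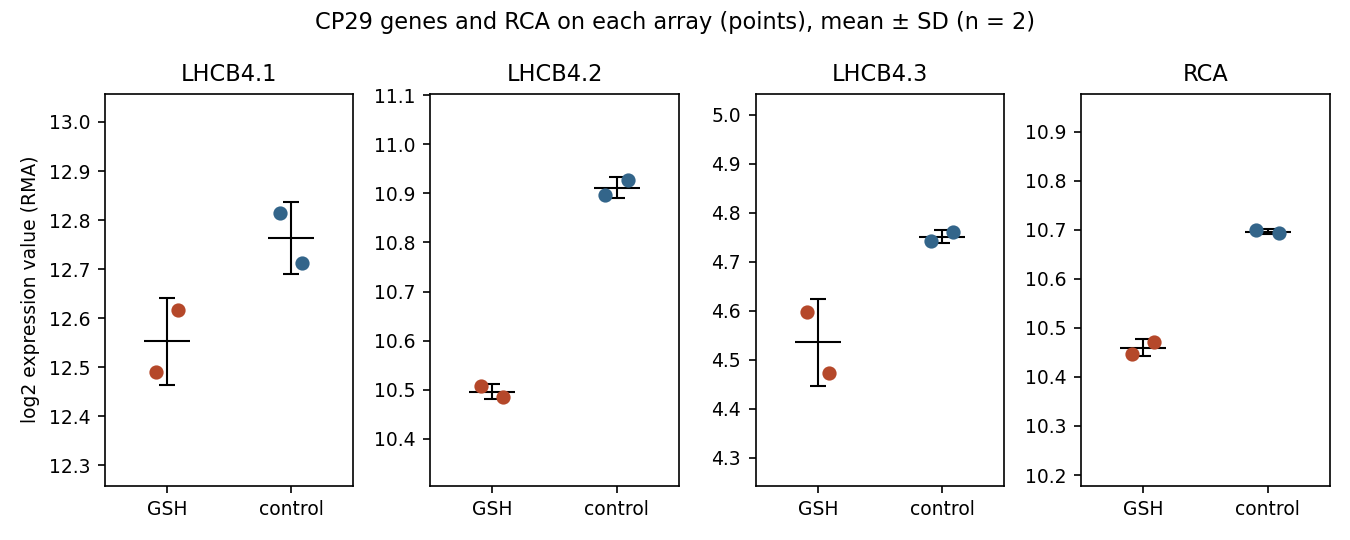
Log2 expression values (RMA) of the CP29 genes and RCA on each of 4 arrays, as points, with the mean and SD of each group (n = 2); every panel spans the same number of log2 units. The GSH points lie below the control points in each panel, with the widest gap for LHCB4.2 and the narrowest for LHCB4.1.

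Of the CP29 genes, LHCB4.2 changed beyond the spread between arrays. Its log2 values were 10.51 and 10.48 on the GSH arrays, against 10.90 and 10.93 on the control arrays. The groups stood 0.39 log2 units apart at their nearest points, while the arrays within a group differed by 0.023 (GSH) and 0.030 (control). With GSH, the LHCB4.2 signal was 0.749 of the control level, a log2 difference of -0.42 ± 0.07 (moderated SE from limma, n = 2 per group), and so fell. The limma adjusted p was 0.00389, and the 95% confidence interval of the ratio, not adjusted for the number of probe sets, ran from 0.669 to 0.839. Of all probe sets tested, 10.7% had a more negative difference than LHCB4.2.

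LHCB4.1, a second gene for full-length CP29, had the same direction and a wider spread. Its log2 values were 12.49 and 12.62 on the GSH arrays, against 12.82 and 12.71 on the control arrays. The groups did not overlap, but the gap between them, 0.096 log2 units, was smaller than the distance of 0.126 between the GSH arrays and of 0.104 between the control arrays. The difference of -0.21 ± 0.08 log2 units (SE, n = 2 per group) did not pass over all probe sets (limma adjusted p = 0.0932). The unadjusted 95% interval of the ratio was 0.756 to 0.989. Where limma's spread was allowed to follow the signal level, LHCB4.1 passed as well, with an adjusted p of 0.00882.

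LHCB4.3 gave a dim signal. Its log2 values were 4.60 and 4.47 on the GSH arrays, against 4.74 and 4.76 on the control arrays. These values lie above the arrays' lower quartile and below their median, and no detection calls were used, so it is unknown whether this signal exceeds background. The GSH arrays differed by 0.12 log2 units, close to the gap of 0.14 between the groups, and the control arrays by 0.019. The difference of -0.22 ± 0.08 log2 units (SE, n = 2 per group) did not pass (limma adjusted p = 0.0716). RMA compresses differences of dim probe sets, so the size for this gene is uncertain.

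RCA, which acts on Rubisco in the stroma and not in the antenna, repeated closely between arrays. Its log2 values were 10.45 and 10.47 on the GSH arrays, against 10.70 and 10.69 on the control arrays. The GSH arrays differed by 0.025 log2 units and the control arrays by 0.0070, with a gap of 0.22 between the groups. RCA fell to 0.849 of the control level, a log2 difference of -0.24 ± 0.07 (SE, n = 2 per group), with a limma adjusted p of 0.0355 and an unadjusted 95% interval of 0.759 to 0.949. Its difference lay near the smallest that passed anywhere on the array, 0.22 log2 units. The call was lost without GSH replicate 1, GSH replicate 2, control replicate 1 or control replicate 2, where the difference ran from -0.25 to -0.22 and the limma adjusted p from 0.0884 to 0.139. It was also lost with arrays centred on their medians (-0.21, limma adjusted p = 0.0533), so the number of members past the threshold was 1 in each of those settings and the one that stayed was LHCB4.2. The plastid gene rbcL, for the large subunit of Rubisco, had values of 10.67 and 10.61 on the GSH arrays, against 10.70 and 10.71 on the control arrays, and did not pass (-0.065 ± 0.070, limma adjusted p = 0.541; named after its values were seen).

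The genes were then compared with each other inside each array, where a shift of the whole array cancels. The log2 value of LHCB4.1 minus that of LHCB4.2 was 1.98 and 2.13 on the GSH arrays, against 1.92 and 1.78 on the control arrays. The groups did not overlap, and LHCB4.2 was lower relative to LHCB4.1 by 0.21 log2 units with GSH. LHCB4.2 minus RCA was 0.060 and 0.013 on the GSH arrays, against 0.20 and 0.23 on the control arrays, a change of -0.18. These groups did not overlap either, whereas those of LHCB4.1 minus RCA did, with a change of 0.026. The 3 pairs with LHCB4.3 are not read, because its signal may be background. In an exact two-sided permutation test LHCB4.2 against LHCB4.1 and LHCB4.2 against RCA each gave p = 0.333, the smallest that this test can give for 2 arrays against 2, and 0.667 after Benjamini-Hochberg adjustment over the 6 possible pairs. This test could not have passed at any size of difference, so it leaves undecided whether LHCB4.2 differed in its response from LHCB4.1 or RCA. Such differences between probe sets compare sizes of change and carry no information on which transcript is the more abundant.

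Deviations within a group did not run the same way for all members. GSH replicate 1 was the lower GSH array for LHCB4.1 and RCA (by 0.13 and 0.025 log2 units) and the higher one for LHCB4.2 and LHCB4.3 (by 0.023 and 0.12). Control replicate 1 was the higher control array for LHCB4.1 and RCA (by 0.10 and 0.0070) and the lower one for LHCB4.2 and LHCB4.3 (by 0.030 and 0.019). No array was therefore low for all members at once within its group.

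Most control probe sets that detect no seedling RNA were lower on the GSH arrays, by amounts that differed between them. The 27 probe sets for Bacillus RNA, which the array holds for RNA spiked in before labelling (the sources used here do not say whether it was added), had mean log2 values of 5.52 and 5.54 on the GSH arrays, against 5.82 and 5.83 on the control arrays. Their median difference was -0.26, within a range from -0.87 to 0.13. By Bacillus gene the medians were -0.55 for dap, -0.30 for phe, -0.22 for lys, -0.18 for thr and 0.0004 for trpn. The 18 hybridization controls had means of 9.10 and 9.24 on the GSH arrays, against 9.34 and 9.37 on the control arrays, with a median difference of -0.16. All 4 members lie inside the range of the Bacillus probe sets. Probe sets for actin, GAPDH and ubiquitin went the other way, with median differences of 0.15, 0.29 and 0.11, of which 3 of 5 for GAPDH passed, all higher, and none for actin or ubiquitin. Signals for 25S ribosomal RNA were 8.19 and 8.00 on the GSH arrays, against 11.11 and 11.01 on the control arrays. Centring each array on its own median over the Bacillus probe sets moved every difference up by 0.14 log2 units, so that the median of all probe sets became 0.13. LHCB4.2 then stood at -0.27 ± 0.14 (limma adjusted p = 0.118) and RCA at -0.095 ± 0.136 (limma adjusted p = 0.629), with LHCB4.1 at -0.068 and LHCB4.3 at -0.073, and none of the 4 passed. The SE was 0.136 for each of the 4 and for the other list genes named in the text. In this setting limma thus used 1 common spread for these genes, unlike the main test, where the SE differs between genes. It includes the spread of the Bacillus medians, which centring adds to every gene. Those medians were 5.26 and 5.11 on the GSH arrays, against 5.39 and 5.27 on the control arrays. They repeated less closely within groups than the means above. Relative to the median of all probe sets the members stayed as far below as before, because this centring shifts all genes alike. Its shift of 0.14 is smaller in size than the median of the Bacillus probe sets' own differences, -0.26. LHCB4.1, LHCB4.3 and RCA had differences smaller in size than that -0.26, and LHCB4.2 a larger one. A shift by that amount was not tested, so the sign of those 3 genes depends on how the centre is taken.

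**Figure D2:**
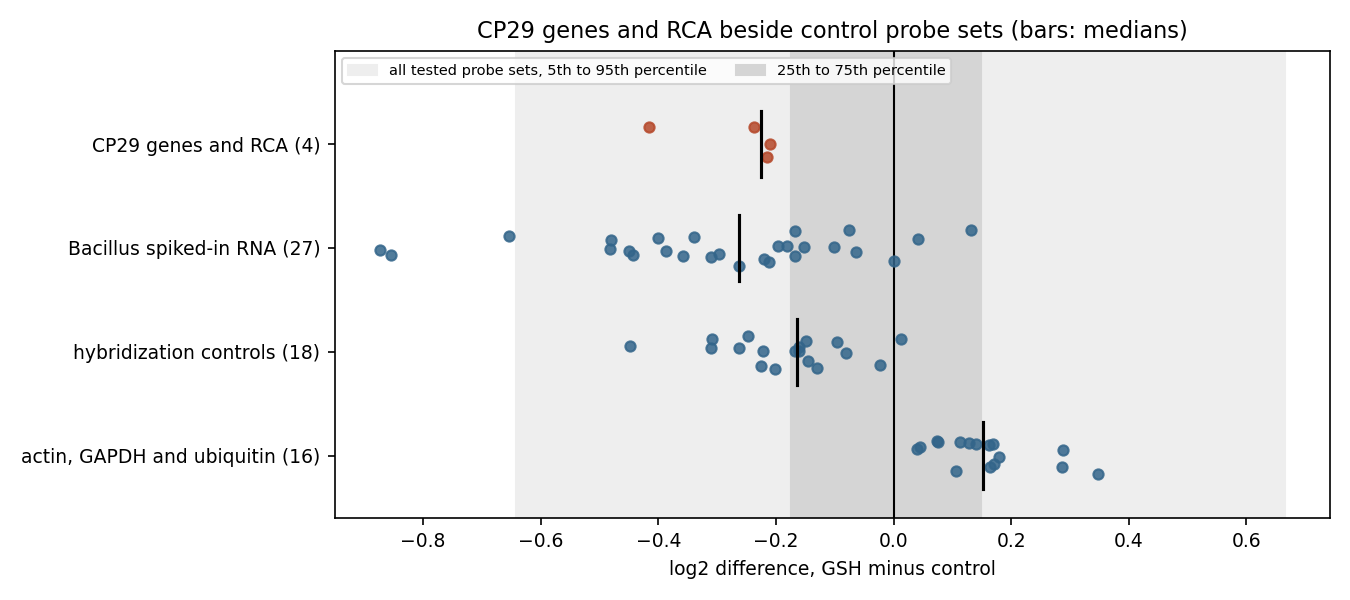
Log2 difference, GSH minus control, of the 4 members and of 27 Bacillus, 18 hybridization and 16 actin, GAPDH and ubiquitin control probe sets (points; vertical bars are medians; vertical jitter has no meaning), with grey bands for all tested probe sets. The members lie between -0.42 and -0.21, inside the range of the Bacillus controls, whereas the actin, GAPDH and ubiquitin probe sets lie above 0.

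**Figure D3:**
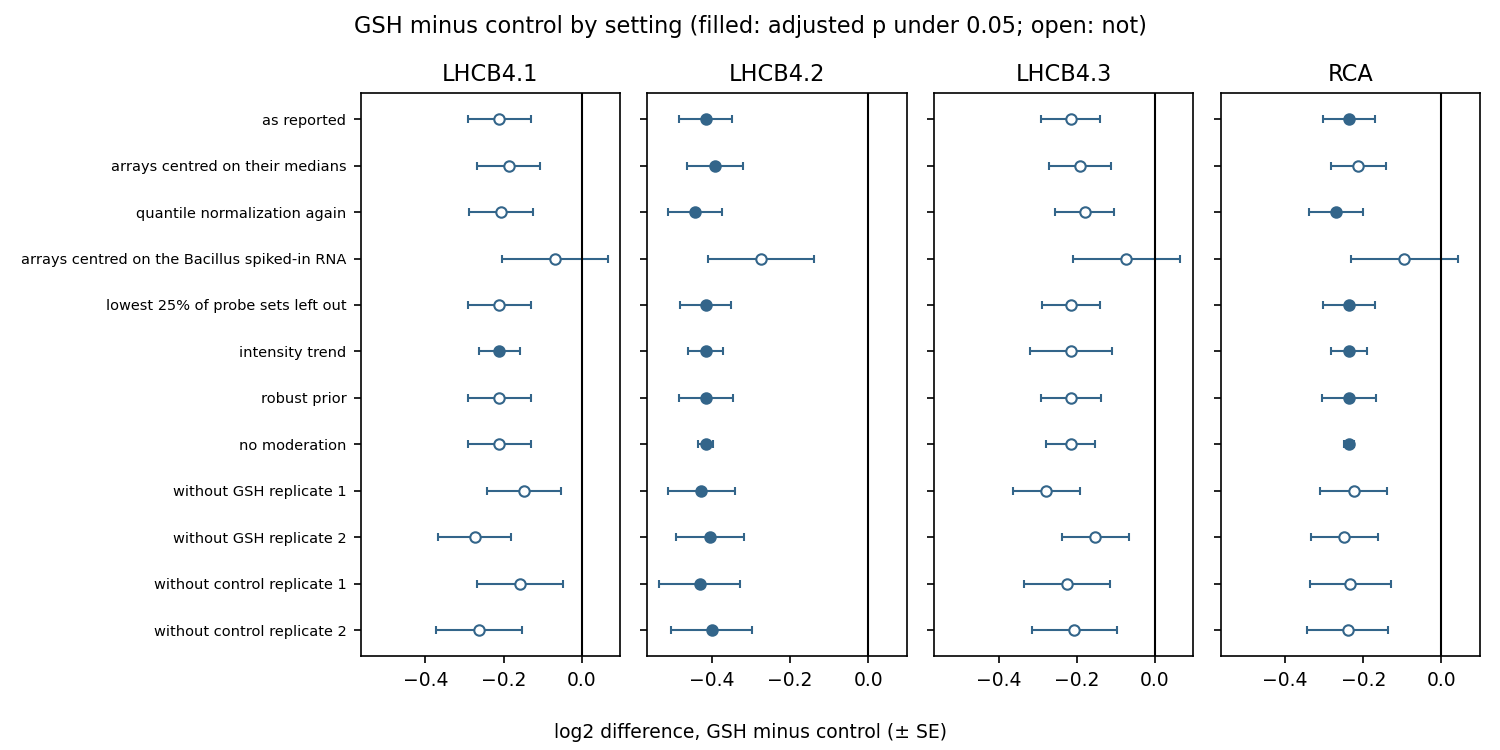
Log2 difference, GSH minus control, with its SE, of each of the 4 genes as reported and under 11 other settings; filled points passed an adjusted p of 0.05. LHCB4.2 is filled in every setting shown but the centring on the Bacillus RNA, RCA turns open when any single array is left out, and no point lies above 0.

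Of the root and shoot markers measured, AT1G22690 alone passed in the fit of all arrays. The 3 measured root markers, of 12 listed, were PYK10, EXPA7 and EXPA18. Their summed level, as log2 of the sum of linear values, was 5.64 and 5.80 on the GSH arrays, against 5.84 and 5.80 on the control arrays. In the fit of all arrays PYK10 stood at -0.25, EXPA7 at -0.20 and EXPA18 at 0.13, and none of them passed there. PYK10 was at -0.34 without GSH replicate 2, so its result depended on which arrays were kept. Of 13 listed markers of shoot epidermis, guard cells and veins, 2 were measured, and their summed level was 8.66 and 8.69 on the GSH arrays, against 9.18 and 9.21 on the control arrays. Of these AT1G22690 fell (-0.57 ± 0.07 log2 units, adjusted p = 0.0011 by limma), and FMA, a regulator of guard cell fate, stood at -0.20 and did not pass. The sum is mostly AT1G22690, whose control mean was 9.04, against 5.90 for FMA. The markers' part in the members' lower signals was not tested.

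The members' partners in photosynthesis were taken from 11 lists of 151 nuclear genes, of which 27 had a probe set of their own in the annotation. Of these 27 genes 8 fell, 3 rose and 16 did not pass, with a median of -0.10. Over all probe sets tested 33.8% passed and 17.5% passed as lower. With quantile normalization again 11 were lower and 2 higher, and with arrays centred on the Bacillus RNA 4 were lower and 5 higher, with a median of 0.041. The annotation gives no probe set of their own to the other LHCB genes, all 12 listed, or to the 6 LHCA genes. The same holds for the 15 genes for antenna targeting and regulation, so LHCB4.1, LHCB4.2 and LHCB4.3 are the antenna genes followed here. For 8730 of the 22746 probe sets tested the annotation gives no gene, so genes missing here may still have probe sets on the array. Of 3 nuclear photosystem II genes, PSB27, for an assembly factor, fell by 0.69 ± 0.08 log2 units and PSBY, for a small membrane subunit, by 0.35 ± 0.07, while PSBW stood at -0.076. LHCB4.2 lay between PSB27 and PSBY in its difference. Neither photosystem I gene measured passed, with PSAN at -0.064 and PSAE-1 at -0.045, and both, like PSBW, turned positive under the Bacillus centring. ATPC1, for the gamma subunit of the chloroplast ATP synthase, fell by 0.41 ± 0.07, a value next to that of LHCB4.2. Under the Bacillus centring PSB27 (-0.55), PRK (-0.62), CHLM (-0.45) and AT1G11860 (-0.86) kept their calls. PSBY, ATPC1, SBPASE and HPR, like LHCB4.2 and RCA, lost theirs.

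Around RCA, none of the 6 measured genes of the list on Rubisco subunits, assembly and regulation passed, and 5 of them had negative differences (3 under the Bacillus centring), with a list median of -0.18. AT5G28500, AT3G47650 and AT5G51110 stood at -0.24, -0.24 and -0.23, sizes like that of RCA, with limma adjusted p-values of 0.0545, 0.0595 and 0.0636 just above the threshold that RCA met. All 3 passed with quantile normalization again (limma adjusted p = 0.0291, 0.0393 and 0.0416) and where the spread was allowed to follow the signal level (limma adjusted p = 0.0339, 0.0129 and 0.0102). AT5G28500 and AT3G47650 passed also with the dimmest probe sets left out (limma adjusted p = 0.0436 and 0.0476). AT3G48420 stood at -0.14. The annotation gives no gene for a small subunit of Rubisco a probe set of its own. In the Calvin-Benson cycle, which RCA feeds through Rubisco, PRK, for the phosphoribulokinase that makes Rubisco's substrate, fell by 0.77 ± 0.07 log2 units, and SBPASE, for sedoheptulose bisphosphatase, fell by 0.44 ± 0.07. AT1G56190 stood at 0.21 and did not pass (0.35 and called under the Bacillus centring). PRK and SBPASE thus had larger differences than RCA, but whether they differed from it was not tested.

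**Figure D4:**
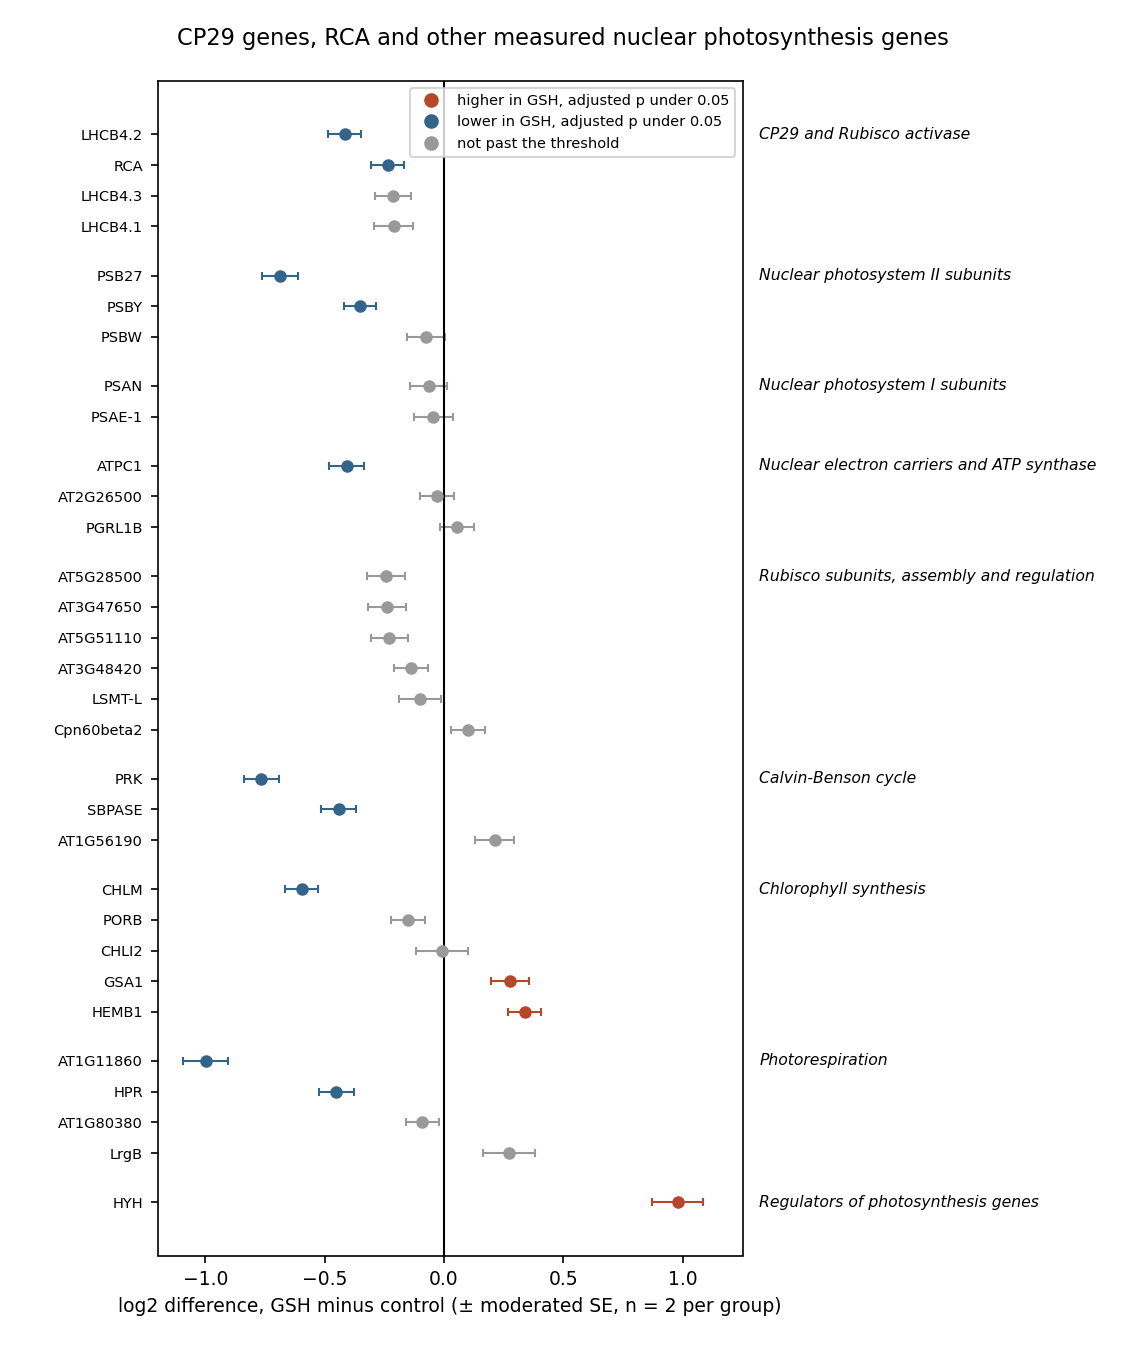
Log2 difference, GSH minus control, with limma's moderated SE (n = 2 per group), of the 4 members and the 27 other measured nuclear photosynthesis genes, by list; colour gives the call at an adjusted p of 0.05. The members lie between -0.42 and -0.21, while the other genes range from -0.999 for AT1G11860 to 0.98 for HYH.

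The genes with the most similar pattern were found by the Euclidean distance between log2 values over the 4 arrays, each probe set centred on its own mean, among probe sets with 1 gene whose mean lay within 1 log2 unit of the member's. For LHCB4.2, out of 727 candidates, these were MAC3B, AT3G14200 and PUB23, at distances of 0.0095, 0.027 and 0.028 log2 units. For RCA, out of 797 candidates, they were ELC, AT5G65380 and AT5G14910, at 0.0088, 0.019 and 0.021. For LHCB4.1, out of 168 candidates, they were COR47, AT1G54410 and AT3G61260, at 0.040, 0.047 and 0.061. For LHCB4.3, out of 6805 candidates, they were AT5G38040, AT4G09500 and ADPG1, at 0.0098, 0.025 and 0.025. No member was among the nearest 3 of another. Over 4 arrays in 2 groups, nearness says little beyond a difference of like size and a like spread.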

How the data were processed

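Per the labels' protocols, RNA was isolated with Trizol and 6 µg of it entered biotin labelling. The authors deposited RMA log2 values for each probe set on each array, produced in Affymetrix Expression Console, per the submitters' processing notes (versions not given). RMA equalises the distributions of the arrays, which hides any change common to most genes. Tests on genes left out 64 control probe sets. Of the 22746 remaining, the platform annotation, which is old, gives 1 gene for 13513, several for 503 and none for 8730, and 13436 of the first kind were renamed with RefSeq symbols of assembly TAIR10.1. Coordinates are left out because the array's genome build is not named in the sources used here.

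The test was limma 3.58.1 under R 4.3.3, two-sided, with a linear model of treatment alone, moderated by eBayes (2 residual and 4.55 prior degrees of freedom), and p-values were adjusted by Benjamini and Hochberg's method across the whole array. It was tested on simulated data beforehand, where it called 0 of 50 changes of 0.25 log2 units, 16 of 50 of 0.5 and 50 of 50 of 1. Of the 22546 probe sets simulated without change, it called 6. With so few changed probe sets the adjustment is stricter than here, where 33.8% passed, so these shares do not carry over to the arrays. Groups came from the sample titles. The text names the members, the 3 nearest patterns of each, and from each list up to 4 measured genes, those of smallest unadjusted p. The members, lists and rules were chosen with earlier results of these data known. Alternatives were 3 other scalings, a filter on dim probe sets, other estimates of spread, a replicate block, leaving out each array, and a 2-fold rule without overlap. The number of arrays limits the precision.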

Additional observations from a re-analysis of the deposited data

How the results depend on the processing

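The differences of LHCB4.1, LHCB4.2, LHCB4.3 and RCA stayed negative under the 3 other scalings. The remaining alternatives could not turn their sign. Those either leave the difference as it was or drop a single array from groups that do not overlap. LHCB4.2 kept its call in all but 2 of the alternatives. A shift by the median difference of the Bacillus probe sets (-0.26) was not among these alternatives. Besides the values given above for the Bacillus centring (LHCB4.2 -0.27, RCA -0.095), the median centring (RCA -0.21) and the intensity trend (LHCB4.1 -0.21), the rule of 2-fold with no overlap called neither LHCB4.2 (-0.42) nor RCA (-0.24), because both are under 2-fold. It called 0 of 4 members, 0 of 27 photosynthesis genes and 900 probe sets. Members called were 1 with median centring, 0 with Bacillus centring and 1 without any single array (range 1 to 1). RCA ran from -0.25 to -0.22 without single arrays, where the lone array left in a group is taken to vary like the other group. Without moderation of the spread 1425 probe sets and 3 of 27 photosynthesis genes passed, while LHCB4.2 and RCA still did (limma without moderation, adjusted p = 0.0449 and 0.0489). Under Bacillus centring the uncalled genes AT2G26500 (0.11), PSAN (0.078), PSAE-1 (0.097), PSBW (0.066), AT1G80380 (0.052) and AT3G48420 (0.0046) turned positive. Without single arrays AT2G26500 ran from -0.077 to 0.015, PSAN from -0.13 to 0.0057, PSAE-1 from -0.13 to 0.036 and SAG29 from -0.082 to 0.19, so these uncalled genes have no settled direction. The causes were not tested.

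The labels do not say whether same-numbered arrays share more than a number. The differences between replicates 1 and 2 in the GSH group and in the control group correlated at -0.10 across probe sets. Since probe sets are not independent, this value does not settle whether those arrays share a culture or batch. With the replicate block 6235 probe sets and 1 of 4 members passed, and RCA (-0.24, limma adjusted p = 0.0794) did not. With the numbers crossed, chosen after seeing the data, 6898 probe sets and 1 of 4 members passed, and RCA was again the one lost (-0.24). No probe set pairs a member with another gene, so that alternative gave no value.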

Other observations

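In chlorophyll synthesis, which supplies the pigment that CP29 binds, steps went both ways. HEMB1, for an early enzyme of tetrapyrrole synthesis, rose by 0.34 ± 0.07 log2 units and GSA1, for the enzyme that forms 5-aminolevulinate, by 0.28 ± 0.08 (a call lost without GSH replicate 1, GSH replicate 2 or control replicate 2, at 0.21 to 0.32, and also with quantile normalization again, at 0.24, with the replicate block and without moderation of the spread), whereas CHLM, for a methyltransferase of the chlorophyll branch, fell by 0.60 ± 0.07 (limma, adjusted over all tested probe sets; SE, n = 2 per group). PORB stood at -0.15 and did not pass. Of 4 photorespiration genes, AT1G11860 fell by 0.999 ± 0.096 and HPR, for hydroxypyruvate reductase, by 0.45 ± 0.07, both beyond RCA in size, while LrgB (0.27) and AT1G80380 (-0.090) did not pass. Under the Bacillus centring HPR lost its call (-0.31, limma adjusted p = 0.0704) and LrgB passed (0.41), as LrgB did without GSH replicate 1 (0.42). HYH, a bZIP factor related to HY5 and the single regulator measured of 17 listed, rose by 0.98 ± 0.11, with log2 values of 5.78 and 5.80 on the GSH arrays, against dim values of 4.97 and 4.66 on the control arrays. Of 2 senescence markers neither NOL (-0.20) nor SAG29 (0.055) passed, although NOL did with quantile normalization again (-0.23).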
